A study of Oryctolagus cuniculus with 16 samples.

Results

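Elastic fibres give the vaginal wall its recoil, and the genes described here encode their parts: elastin (ELN), the fibrillins FBN1 and FBN2, the emilin EMILIN1, the fibulins FBLN1, FBLN2, FBLN5 and EFEMP2, and the microfibril-associated proteins MFAP4 and MFAP5. These 10 genes were chosen by symbol, and 8 of the 10 were analysed out of 13001 named genes, while ELN and EFEMP2 were not analysed here. All 8 passed the filter on low counts that left 10942 genes for testing. RNA came from the vagina of New Zealand White rabbits, all female and 17 to 19 weeks old, and polyadenylated RNA was sequenced in 16 libraries with 1 animal label each. The 4 PLATE libraries (labels 1, 5, 9 and 13) came from vaginas that received a graft with tissue particles and the 3 acellular libraries (6, 8 and 10) from vaginas that received a graft without particles, both sampled 10 mm from the graft. The 3 sham libraries (11, 12 and 14) came from sham-operated vaginas and the 6 control libraries (2, 9, 16, 24, 25 and 29) from native vaginas. The labels give neither the graft material, the time after surgery nor a sampling distance for sham and control, so that site and graft cannot be told apart in comparisons with those groups. Label 9 occurs in both PLATE and control, while the design text counts 16 rabbits. Over the 10942 genes PLATE 9 and control 9 had a Spearman correlation of 0.975. It was 0.838 to 0.942 for control 9 with the other controls and 0.862 to 0.980 for PLATE 9 with the other PLATE libraries. These pairs within a group also left out genes with very few counts in the pair, and no other pair across groups was computed. Whether these 2 libraries come from 1 animal was not tested, and all 16 were fitted as separate animals.

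As background, an elastic fibre forms when tropoelastin is laid down on a scaffold of fibrillin microfibrils and crosslinked by lysyl oxidases. FBN1 makes up most microfibrils of adult tissue, and FBN2 is best known from development. Fibulin-5 (FBLN5) and fibulin-4 (EFEMP2) bring tropoelastin and the crosslinking enzymes together on the microfibril, and mice without Fbln5 develop pelvic organ prolapse. EMILIN1 sits where elastin meets the microfibril, and MFAP4 and MFAP5 bind microfibrils and elastic fibres. The series sets vaginas beside a graft with tissue particles against vaginas beside a graft without them.

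Libraries held 20992063 to 30695000 counts, and 15348880 to 23236339 of these fell on named genes. The 8 genes together took 0.0690 to 0.180% of the named-gene counts of a library, and each had at least 418 counts in every library apart from FBN2, which had 4 to 501. Levels are given as CPM, the count of a gene relative to the effective size of its library. They compare a gene between libraries and not genes with each other, because transcript lengths were not used. The tissue label was checked with marker sums. The 6 smooth muscle markers measured summed to 9225 to 156200 CPM and the 9 fibroblast markers to 12330 to 54450 CPM, whereas the 5 columnar epithelium markers ranged from 14.6 to 1154 CPM and the 2 squamous markers (KRT5 and TP63) from 0.720 to 71.5 CPM. Control 2 held the lowest columnar sum. Its TMM scaling factor was 0.592, against 0.917 to 1.155 in the other libraries. Its CPM values are therefore high relative to its shares of raw counts. Leukocyte markers (6 measured) summed to 1331 CPM in PLATE 1 and to 70.3 to 484 CPM in the other libraries. PLATE 1 and control 2 stand apart in these sums.

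By edgeR log2 fold change, all 8 elastic fibre genes lay lower in acellular than in sham and higher in PLATE than in acellular. The amounts differed between genes, and for FBN1, FBLN1 and FBLN5 they were smaller than the standard error in both comparisons. MFAP4 and EMILIN1 were low in every library beside acellular grafts, FBN2 was high in a single PLATE library, and FBLN1 and FBLN5 followed each other from library to library with all groups overlapping. No gene passed an adjusted p of 0.05 in the quasi-likelihood F test of edgeR, with Benjamini-Hochberg adjustment across the 10942 genes tested, in any of the 6 pairs of groups or in the joint test of the 4 groups. The share called was therefore 0% in each comparison, for the 8 genes and for all genes, while 326 to 821 genes lay at an unadjusted p under 0.05 in the 6 pairs and 525 in the joint test. DESeq2 called 1 gene between PLATE and acellular, 14 between PLATE and sham, 1 between acellular and sham, 17 between acellular and control, 1 in the joint test and 0 in the remaining comparisons. Limma voom with quality weights called 72 genes between acellular and sham and 0 in every other comparison. Among the 8 genes MFAP4 alone was called by a tool other than edgeR, once by each. The DESeq2 call was made between acellular and control, where after its own filtering DESeq2 gave an adjusted p to 1388 genes and to 4 of the 8, against 10860 genes and 7 of the 8 in the other comparisons.

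**Figure D1:**
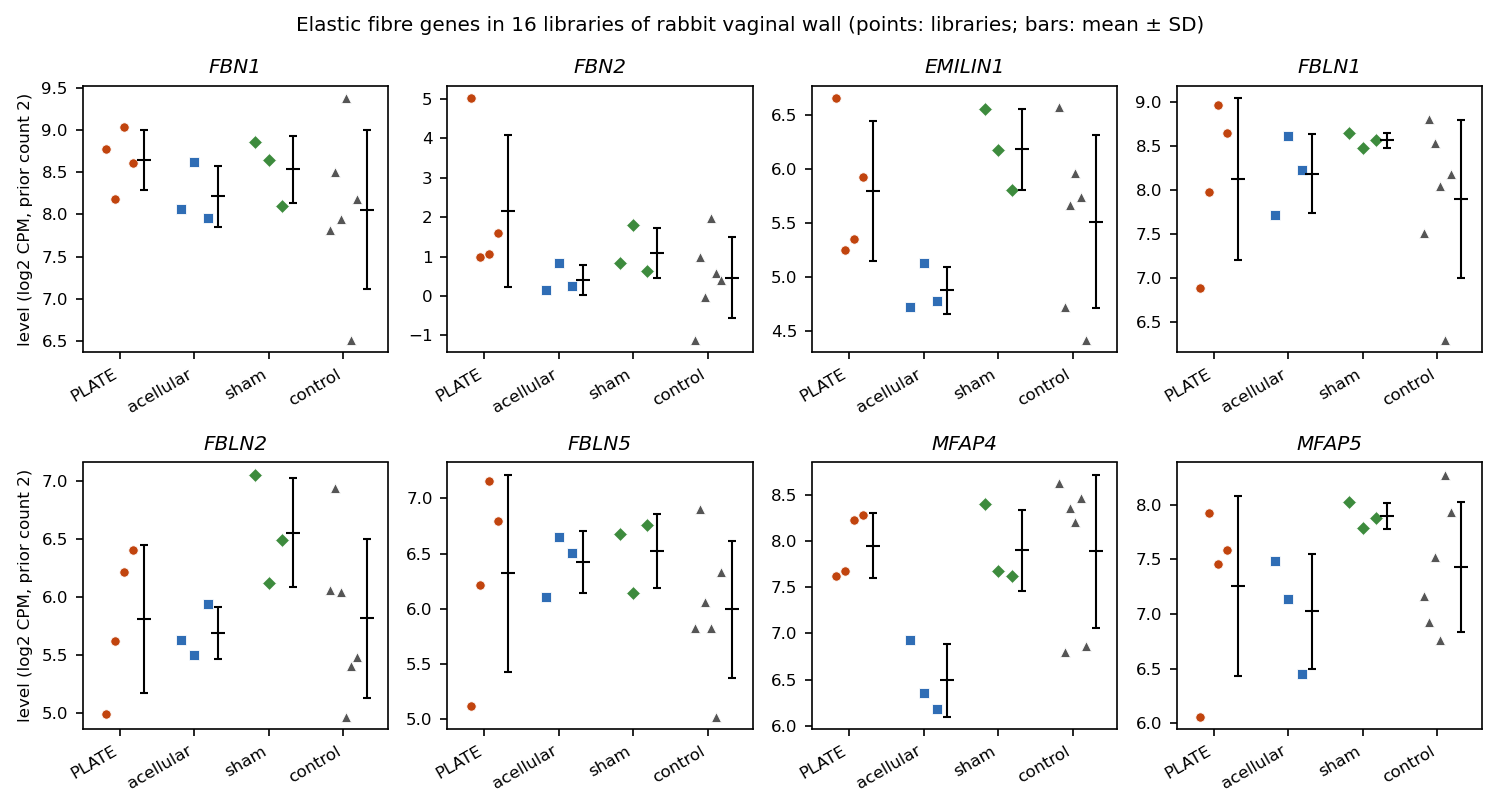
Level of each of the 8 genes as log2 CPM (vertical axis, prior count of 2) in PLATE, acellular, sham and control libraries (horizontal axis). Each point is a library and the bars give the mean ± SD of the log2 values. The 3 acellular libraries lie below all PLATE and sham libraries for MFAP4 and EMILIN1, and PLATE 1 lies far above all other libraries for FBN2.

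MFAP4, a fibrinogen-domain glycoprotein that binds elastin, fibrillin and collagen, had 197, 204, 298 and 311 CPM in PLATE 1, 5, 9 and 13, and 122, 81.9 and 72.6 CPM in acellular 6, 8 and 10. In sham 11, 12 and 14 it had 337, 204 and 196 CPM, and the controls ran from 110.97 to 396 CPM with a median of 311 CPM. The acellular libraries lay below every PLATE and sham library and overlapped the controls, since control 9 (110.97 CPM) and control 29 (116.4 CPM) were as low. MFAP4 averaged 253 ± 60.4 CPM in PLATE (SD, n = 4) and 92.2 ± 26.3 CPM in acellular (SD, n = 3), a log2 fold change of 1.45 ± 0.43 (SE; edgeR adjusted p = 0.874). Against sham (246 ± 79.1 CPM, n = 3) the acellular libraries stood at -1.41 ± 0.45 on the log2 scale (edgeR adjusted p = 0.902, limma voom adjusted p = 0.0495). Against control (267 ± 123 CPM, n = 6) they stood at -1.53 ± 0.41 (edgeR adjusted p = 0.827, DESeq2 adjusted p = 0.0192). All 3 of these comparisons use the same acellular libraries. By p-value MFAP4 ranked 14 of 10942 genes between PLATE and acellular, 58 between acellular and sham and 13 between acellular and control. Over all alternatives the log2 fold change kept its sign, at 1.31 to 1.71, -1.67 to -1.10 and -1.79 to -1.36 in these 3 comparisons. Between PLATE and sham MFAP4 differed by 0.04 ± 0.41 and between PLATE and control by -0.08 ± 0.35 on the log2 scale, less than the standard error.

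EMILIN1, the elastin microfibril interface protein, had 100.5, 38.0, 40.7 and 60.6 CPM in PLATE 1, 5, 9 and 13, and 26.3, 34.9 and 27.3 CPM in acellular 6, 8 and 10. Sham 11, 12 and 14 had 93.8, 72.2 and 55.9 CPM, and controls ranged from 21.2 to 94.9 CPM (median 51.9 CPM). As for MFAP4, acellular did not overlap with PLATE or sham and lay inside the control range. The log2 fold change was 1.02 ± 0.45 between PLATE and acellular (edgeR adjusted p = 0.874) and 0.66 without PLATE 1, which held the highest value of the group. Between acellular and sham it was -1.33 ± 0.48 (edgeR adjusted p = 0.902), and -1.49 to -1.10 with each library left out.

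For the groups that do not overlap, the counts over all genes give the scale. Between PLATE and acellular 3 of the 8 genes did not overlap (MFAP4, EMILIN1 and FBN2, all higher in PLATE), against 4.98% of all genes in either direction and 3.27% with PLATE higher. Between acellular and sham 4 of the 8 did not overlap (MFAP4, EMILIN1, FBLN2 and MFAP5, all lower in acellular), against 18.3% of all genes in either direction and 10.5% with acellular lower. None of the 8 was free of overlap between PLATE and sham (14.9% of all genes), PLATE and control (0.119%), acellular and control (1.73%) or sham and control (3.69%). At an unadjusted edgeR p under 0.05, MFAP4, EMILIN1 and FBN2 were higher in PLATE than in acellular, 3 of 8 against 4.71% of all genes in either direction and 3.61% with PLATE higher. FBN2 was higher in PLATE than in sham at that level, 1 of 8 against 7.5% and 5.85%. EMILIN1 and MFAP4 were lower in acellular than in sham, 2 of 8 against 4.87% and 3.11%. FBN2 was higher in PLATE than in control, 1 of 8 against 4.39% and 3.3%. MFAP4 was lower in acellular than in control, 1 of 8 against 6% and 4.22%. Between sham and control 0 of 8 lay at that level, against 2.98% of all genes, and in the joint test 2 of 8, against 4.8%. Several of these counts rest on single libraries. Without PLATE 1, MFAP4 alone remained at that level between PLATE and acellular (1 of 8, against 1.63% of all genes). In that setting 0 of 8 lay there between PLATE and sham (against 2.01%). Between PLATE and control it was FBLN5 in place of FBN2 (1 of 8, against 1.75%). The number of all genes at that level also moved with the library left out. Without sham 11 it was 448 between PLATE and sham and 219 between acellular and sham, against 821 and 533 with all libraries. The member count between PLATE and sham was 0 without sham 11 or sham 14. The member count between acellular and sham was 1 without sham 11 and 3 without sham 12. It was 2 between PLATE and control without control 24, 2 between acellular and control without control 9 or control 29, and 1 between sham and control without control 2 or control 9. In the joint test it was 1 without PLATE 1, acellular 8 or acellular 10, and 3 without control 2, control 9 or control 29. Over all genes the joint test had 428, 352 and 543 without PLATE 1, acellular 8 and acellular 10, against 525 with all libraries. The other settings are given without a share over all genes. Their member counts therefore show only that the counts depend on single libraries. With all libraries in the joint test, FBN2 had an unadjusted edgeR p of 0.00809 and MFAP4 of 0.0137, both with an adjusted p of 0.901.

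The low MFAP4 and EMILIN1 levels went with low summed levels of smooth muscle and fibroblast markers. The 5 lowest MFAP4 levels, 72.6 to 122 CPM with the next library at 196 CPM, belonged to the 3 acellular libraries and to control 9 and control 29. The 5 lowest EMILIN1 levels were in the same 5 libraries, at 21.2 to 34.9 CPM, with the next close by at 38.0 CPM. So were the 5 lowest smooth muscle sums (9225 to 18380 CPM, next 29140 CPM) and the 5 lowest fibroblast sums (12330 to 20200 CPM, next 24020 CPM). The 5 lowest libraries of the skeletal muscle and of the cartilage marker sums each shared 4 with those of MFAP4. For the epithelium, endothelium, leukocyte and adipocyte sums it was 0 to 2. By group the smooth muscle sum was 29140 to 48070 CPM in PLATE, 13410 to 18380 CPM in acellular, 37210 to 63130 CPM in sham and 9225 to 156200 CPM in control. The fibroblast sum was 25740 to 50130 CPM in PLATE, 12330 to 20200 CPM in acellular, 26130 to 54450 CPM in sham and 18010 to 48820 CPM in control. No measured marker of either list was at 0 in any library. The fibroblast sum rests mostly on DCN, LUM, COL1A1, COL1A2 and COL3A1, with medians of 2300 to 8010 CPM over the libraries. PDGFRA, DPT, PDGFRB and THY1 had medians of 93.2 to 229 CPM. Taken singly, all 9 were lower in acellular than in sham and 8 were higher in PLATE than in acellular. Between acellular and control 4 were higher and 5 lower, at a median log2 fold change of -0.17. All 6 smooth muscle markers were lower there, at a median of -1.91. In bulk tissue fewer cells of a type and less RNA per cell cannot be told apart, and the part of these markers in the MFAP4 and EMILIN1 differences was not tested. FBLN5 did not share this order. None of its 5 lowest libraries was among the 5 lowest of MFAP4. The ratio of MFAP4 to FBLN5 counts, which does not depend on library scaling, was 2.09 to 5.69 in PLATE, 0.801 to 1.77 in acellular, 1.81 to 3.31 in sham and 0.930 to 10.9 in control.

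MFAP5, which binds fibrillin and carries growth factors of the TGF-beta family on microfibrils, had 66.7, 242, 175 and 192 CPM in PLATE 1, 5, 9 and 13, and 179, 140 and 87.6 CPM in acellular 6, 8 and 10. Sham 11, 12 and 14 had 260, 220 and 235 CPM, close together and above every acellular library, and controls ran from 108.3 to 310 CPM (median 164 CPM). The log2 fold change of -0.81 ± 0.44 between acellular and sham (edgeR adjusted p = 0.902) was -0.58 without acellular 10, the lowest acellular library. PLATE 1 held the lowest MFAP5 level of all 16 libraries.

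The fibrillins form the microfibril itself. FBN1 had 436, 289, 522 and 391 CPM in PLATE 1, 5, 9 and 13, 267, 394.5 and 248 CPM in acellular 6, 8 and 10, 465, 399 and 274 CPM in sham 11, 12 and 14, and 91.3 to 664 CPM in the controls (median 268 CPM). All 4 groups overlapped, and the control range alone, between control 25 and control 24, covered every other library. The largest log2 fold change of FBN1 among the 6 comparisons was 0.43 ± 0.46, between PLATE and acellular (edgeR adjusted p = 0.904). FBN1 overlaps 2 non-coding genes in the RefSeq gene table, and its counts are uncertain to that extent because the strand setting of the counting is not given.

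FBN2 was sparse outside PLATE 1. It had 501 counts or 32.4 CPM in PLATE 1 and 1.88, 1.99 and 2.90 CPM in PLATE 5, 9 and 13, and 1.00, 1.68 and 1.09 CPM in acellular 6, 8 and 10. Sham 11, 12 and 14 had 1.68, 3.40 and 1.44 CPM, and controls ran from 0.360 CPM (4 counts, control 2) to 3.82 CPM with a median of 1.31 CPM. PLATE 1 was therefore the only library above 3.82 CPM, and without it FBN2 in the other PLATE libraries lay inside the ranges of sham and control and just above the acellular libraries. The log2 fold changes were 2.96 ± 1.02 between PLATE and acellular, 2.17 ± 0.98 between PLATE and sham and 2.60 ± 0.77 between PLATE and control (edgeR adjusted p = 0.874, 0.657 and 0.998). Without PLATE 1 these were 0.85, 0.06 and 0.49, and with limma voom, which weights libraries by quality, 0.80, 0.13 and 0.91. FBN2 counts amounted to 7.43% of FBN1 counts in PLATE 1, against 0.160 to 1.53% in the other 15 libraries. In the same library MFAP5 and FBLN5 were low, and the leukocyte marker sum was the highest of all. The part of leukocytes in the FBN2 level was not tested.

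The fibulins link elastin, basement membrane and microfibrils. FBLN5 had 34.7, 74.1, 143 and 111.2 CPM in PLATE 1, 5, 9 and 13, 68.8, 100.4 and 90.7 CPM in acellular 6, 8 and 10, 101.9, 70.4 and 108.4 CPM in sham 11, 12 and 14, and 32.5 to 119 CPM in controls (median 61.7 CPM). FBLN1, found in elastic fibres and basement membranes, had 118, 253, 502 and 402 CPM in PLATE, 211, 391 and 300.0 CPM in acellular and 402, 356 and 379 CPM in sham, listed by the same labels, and 78.4 to 449 CPM in controls (median 277 CPM). All groups overlapped for both genes, and the lowest 2 levels of each were in control 25 and PLATE 1. Their log2 fold changes lay between -0.33 and 0.48 in the 6 comparisons, the highest being FBLN1 between sham and control at 0.48 ± 0.45 (edgeR adjusted p = 0.963). FBLN2, a fibulin of the microfibril and basement membrane, had 31.6, 49.1, 74.2 and 84.5 CPM in PLATE, 49.4, 45.1 and 61.1 CPM in acellular and 133, 69.4 and 89.6 CPM in sham, and 31.1 to 122 CPM in controls (median 55.1 CPM). Its acellular libraries lay below every sham library, with a log2 fold change of -0.91 ± 0.45 (edgeR adjusted p = 0.902) that was -0.60 without sham 11.

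**Figure D2:**
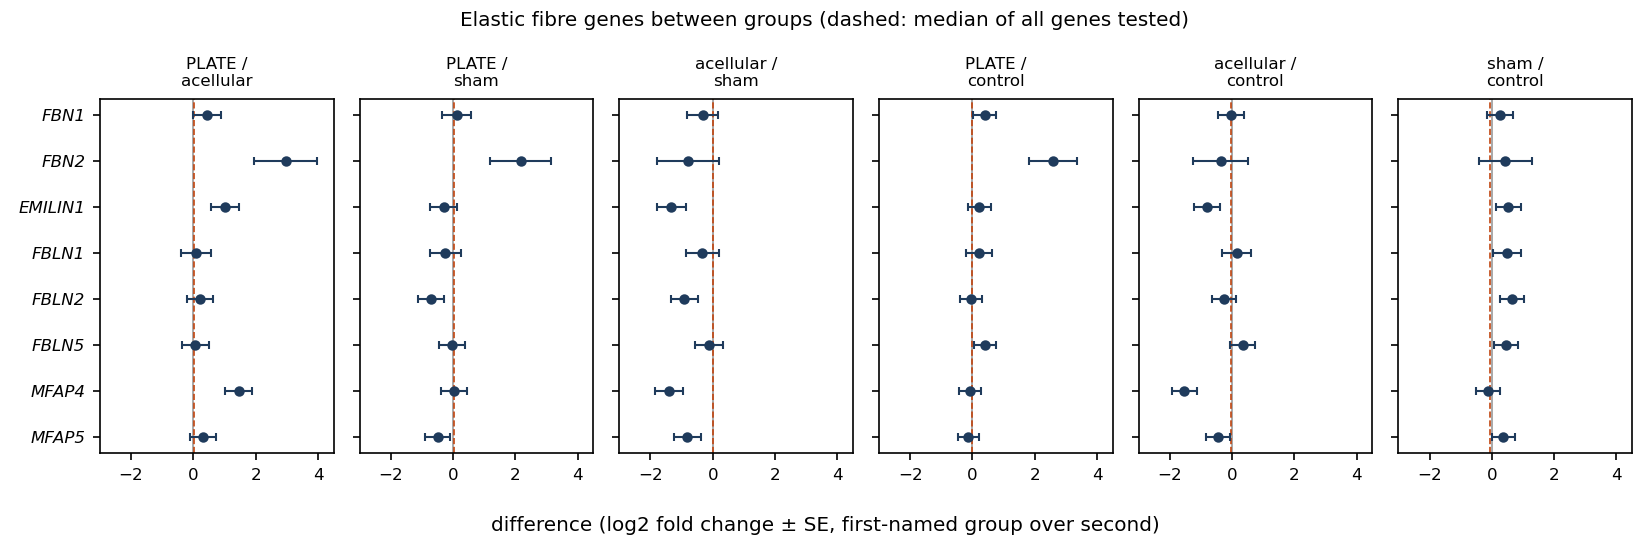
Log2 fold change ± SE from edgeR (horizontal axis) of the 8 genes (vertical axis) in the 6 comparisons, first-named group over second. The dashed line is the median of all genes tested, and the points farthest from it are FBN2 in the comparisons of PLATE, at 2.17 to 2.96, and MFAP4 in those of acellular, at 1.45, -1.41 and -1.53.

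Between acellular and sham all 8 genes were lower in acellular by edgeR. Their median log2 fold change was -0.80 against 0.02 over all genes tested, of which 52.2% were higher. FBLN5 stood at -0.11 ± 0.45 there, and at 0.12 with limma voom, where its sign was reversed. Between PLATE and acellular all 8 were higher in PLATE, at a median of 0.38 against 0.02 over all genes, of which 52.4% were higher. The acellular libraries are part of both comparisons. Sham lay above control for 7 of the 8, with MFAP4 as the exception. The median was 0.44 against -0.06 over all genes, of which 42.1% were higher. PLATE against control gave a median of 0.22 (5 higher, 3 lower), PLATE against sham -0.15 (3 higher, 5 lower) and acellular against control -0.31 (2 higher, 6 lower). Over all genes the medians were -0.01, 0.03 and -0.03 in this order, with 47.7%, 52.6% and 45.8% of genes higher. Single libraries bear on the 3 medians of the 8 genes. PLATE against sham stood at 0.04 without PLATE 1, PLATE against control at 0.01 without PLATE 9 and acellular against control at -0.15 without control 24, and limma voom gave -0.0183 for the last.

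Of the fibulins, FBLN1 and FBLN5 followed each other across libraries. Over the 16 libraries FBLN1 and FBLN5 correlated at Pearson r = 0.923 and Spearman rho = 0.903 on log2 CPM (permutation p = 1e-05 for both, the smallest that 100000 permutations give). Adjusted over the 10941 other genes tested against FBLN5, the permutation p was 0.0219 for r and 0.0547 for rho. Adjusted over those tested against FBLN1 it was 0.0274 and 0.0547. FBLN1 ranked 1 of these 10941 genes by likeness to FBLN5, and FBLN5 ranked 3 by likeness to FBLN1. Without PLATE 1 and control 25, the libraries farthest from the median of FBLN5, r was 0.818, and for deviations from the group means it was 0.925. FBLN2 followed FBLN5 less closely, at r = 0.688 and rho = 0.735 (permutation p = 0.00325 and 0.00158), with r = 0.595 without the same 2 libraries. Adjusted over the genes tested against FBLN5 the permutation p was 0.0738 and 0.138, and over those tested against FBLN2 it was 0.446 and 0.368. With FBLN1, FBLN2 had r = 0.627 and rho = 0.726 (permutation p = 0.00859 and 0.00213), with r = 0.548 without these libraries. Here the adjusted permutation p was 0.116 and 0.215 against FBLN1, and 0.562 and 0.368 against FBLN2. FBN1 and FBN2 had a similar order of libraries, with rho = 0.815 (permutation p = 0.00022) but r = 0.471 (permutation p = 0.0789), and r = 0.620 without control 24 and control 25. For rho and r the adjusted permutation p was 0.193 and 0.543 against FBN1, and 0.198 and 0.233 against FBN2.

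**Figure D3:**
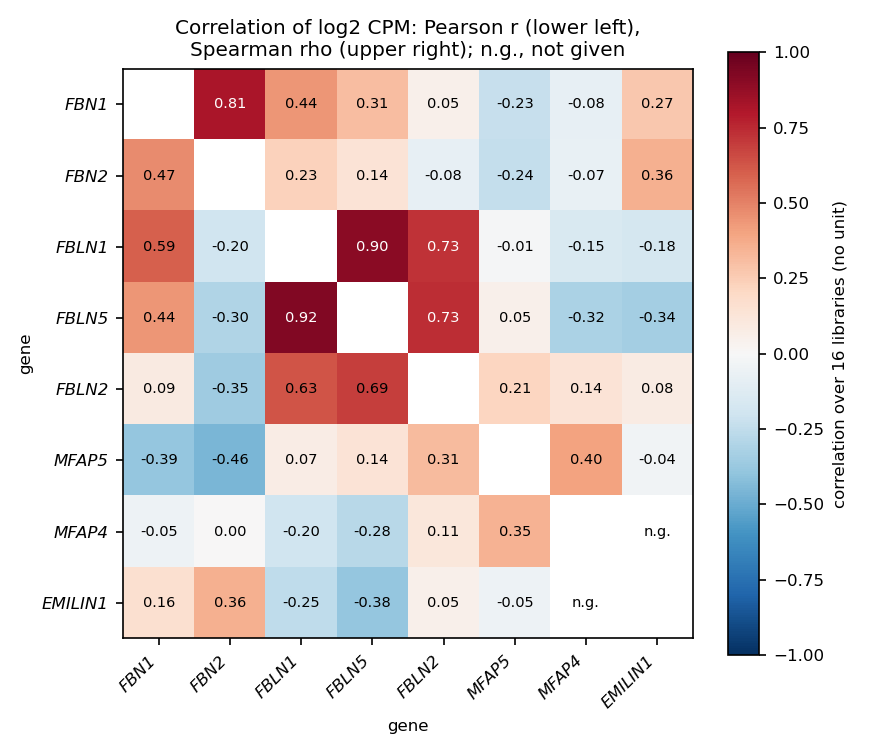
Correlation of log2 CPM over the 16 libraries between the 8 genes (both axes), with Pearson r in the lower left and Spearman rho in the upper right. Pairs of FBLN1, FBLN5 and FBLN2 had r of 0.627 to 0.923. Of these pairs only FBLN1 with FBLN5 had an adjusted permutation p under 0.05, for r and not for rho. The pair of MFAP4 and EMILIN1 is not given because MFAP4 levels fall into separate ranges.

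MFAP4 and EMILIN1 shared the 5 low libraries but not a common order above them. Since MFAP4 had a gap between 122 and 196 CPM, the pair was compared within the 11 libraries above it, where r was 0.121 and rho 0.0909 (permutation p = 0.717 and 0.797, adjusted over all genes 0.955 and 0.964). The libraries below the gap are too few for a value of their own.

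By likeness over the 16 libraries the genes nearest to EMILIN1 were LOXL2, a lysyl oxidase that crosslinks collagen and elastin, and 3 enzymes or chaperones of collagen synthesis, PLOD2, FKBP10 and CRTAP, followed by the membrane protein POPDC2. LOXL2 and EMILIN1 correlated at r = 0.916 and rho = 0.962 (permutation p = 1e-05 for both, adjusted 0.0137 and 0.0285), and r was 0.889 without acellular 6 and control 29. The 5 lowest libraries of this pair are those of MFAP4, and within the other 11 r was 0.794 and rho 0.891 (permutation p = 0.00063 and 0.0005, adjusted over all genes 0.113 and 0.0797). FBLN1 was nearest to the endothelial phosphatase PTPRB and to LTBP1, which anchors latent TGF-beta to microfibrils, then to FBLN5, NOTCH2 and EBF1. LTBP1 and FBLN1 correlated at r = 0.937 and rho = 0.832 (permutation p = 1e-05 and 0.00016, adjusted 0.0274 and 0.124), with r = 0.777 without PLATE 1 and control 25. FBLN5 was nearest to FBLN1 and to the stromal and vascular surface protein CD34, then to IDS, CD99L2 and CYBRD1. FBN1 was nearest to the transcription factor EBF3, at r = 0.906 and rho = 0.876 (permutation p = 1e-05 and 3e-05, adjusted 0.0856 and 0.0656), with r = 0.781 without control 24 and control 25. FBN2 was nearest to the formin FMNL3, at r = 0.914 and rho = 0.726 (permutation p = 4e-05 and 0.00208, adjusted 0.0597 and 0.316), with r = 0.603 without PLATE 1 and control 2. FBLN2 was nearest to PAPLN (r = 0.822 and rho = 0.838, permutation p adjusted 0.298 and 0.251) and MFAP5 to CACNB3 (r = 0.851 and rho = 0.826, permutation p adjusted 0.0260 and 0.164). The points of these correlations share library depth and the marker differences given above, whose part was not tested. With an adjusted permutation p under 0.05 for r, 352 genes followed EMILIN1 in either direction, 153 FBLN5, 40 FBLN1, 357 MFAP5 and 0 each FBN1, FBN2 and FBLN2. MFAP4 is left out because its levels fall into separate ranges. These counts hold for r only. For rho the smallest adjusted permutation p was 0.0547 with FBLN1 and with FBLN5, so no gene reached 0.05 with either.

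**Figure D4:**
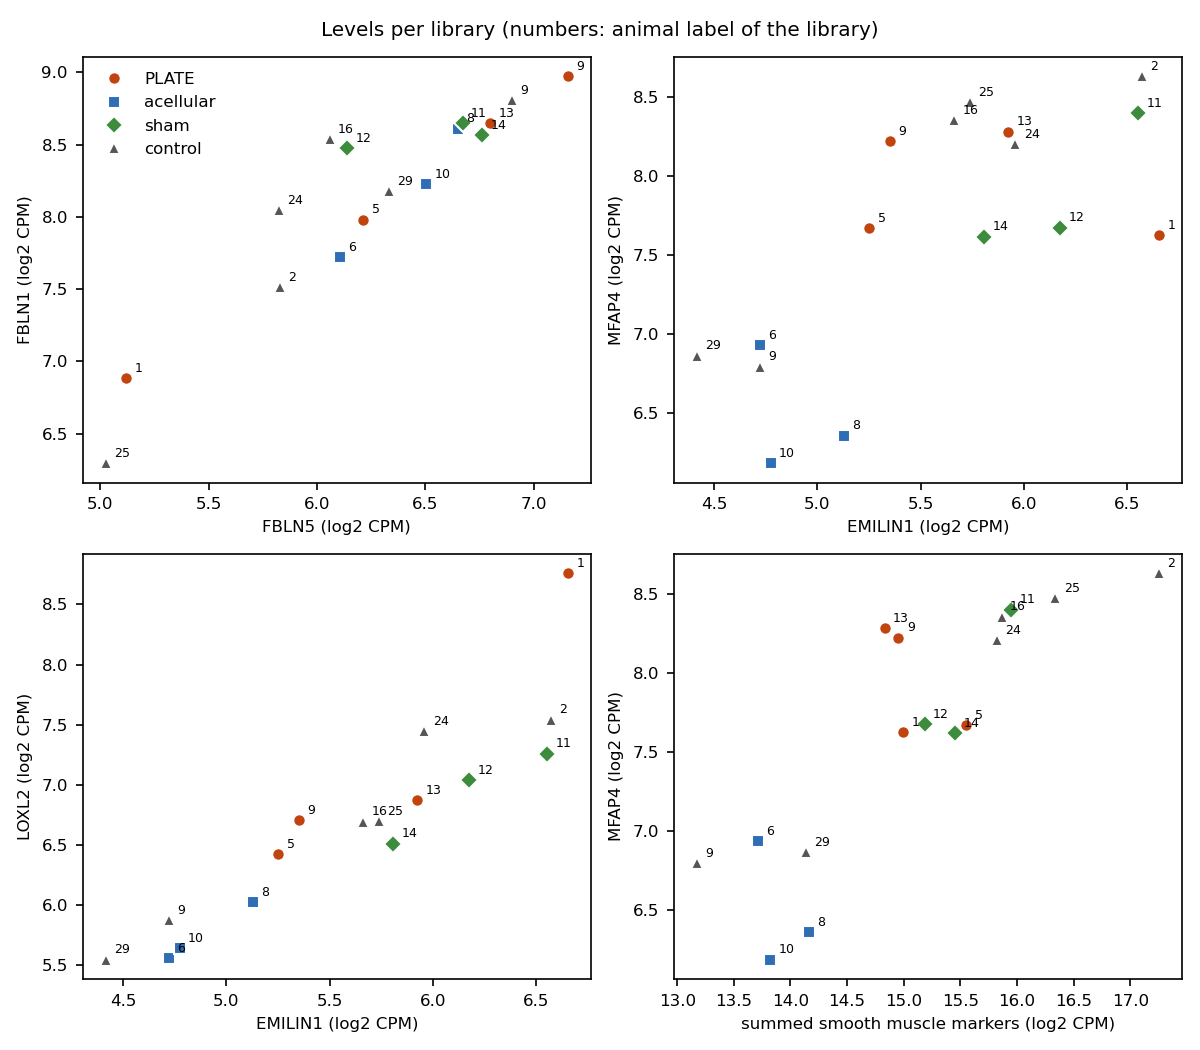
Levels per library as log2 CPM for FBLN1 against FBLN5, MFAP4 against EMILIN1, LOXL2 against EMILIN1, and MFAP4 against the summed smooth muscle markers. Numbers are animal labels, and the 3 acellular libraries with control 9 and control 29 lie at the lower left wherever MFAP4 is on the vertical axis.

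Other genes of elastic fibre assembly and turnover were read from lists by role, and edgeR called 0 of them in every pair of groups (counts at an unadjusted p under 0.05 follow). Among the 6 crosslinking genes, 3 lay at that level between PLATE and acellular (LOXL1, LOXL2 and LOXL4, all higher), 1 between acellular and sham and 1 between acellular and control (both lower). Of all genes, 4.71%, 4.87% and 6% lay at that level in these comparisons. LOXL1, the lysyl oxidase tied to elastin renewal, had 84.7, 68.6, 54.7 and 86.8 CPM in PLATE 1, 5, 9 and 13, 29.4, 43.3 and 47.4 CPM in acellular 6, 8 and 10, 93.0, 70.3 and 69.3 CPM in sham 11, 12 and 14, and 33.4 to 112.9 CPM in controls. The acellular libraries lay below every PLATE and sham library. Its log2 fold change was 0.88 ± 0.34 between PLATE and acellular, -0.95 ± 0.36 between acellular and sham and -0.98 ± 0.32 between acellular and control (edgeR adjusted p = 0.874, 0.902 and 0.827). LOX, the founding lysyl oxidase, averaged 111.98 ± 19.5 CPM in PLATE, 130.2 ± 75.3 CPM in acellular, 92.6 ± 33.1 CPM in sham and 101.5 ± 39.4 CPM in control, and its groups all overlapped. LOXL2 averaged 185 ± 166 CPM in PLATE, 53.96 ± 9.65 CPM in acellular, 125 ± 31.5 CPM in sham and 112.1 ± 57.7 CPM in control, with 434 CPM in PLATE 1 and 85.8 to 117 CPM in the other PLATE libraries. Between PLATE and acellular its log2 fold change was 1.78 ± 0.58, and 0.92 ± 0.43 without PLATE 1 (edgeR adjusted p = 0.874 and 1). Without that library 2 of the 6 crosslinking genes, LOXL1 and LOXL2, lay at an unadjusted p under 0.05, against 1.63% of all genes.

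Of 13 latent TGF-beta binding proteins and ADAMTS-like partners of microfibrils 7 were tested. All 7 were lower in acellular than in sham, at a median log2 fold change of -1.18, with 1 at an unadjusted p under 0.05 (against 4.87% of all genes). All 7 were higher in PLATE than in acellular, at a median of 0.55, with 1 at that level (against 4.71%). Without PLATE 1 the second median was 0.32, with 0 at that level (against 1.63%). Of 15 further microfibril and elastic fibre glycoproteins 11 were tested. Their medians lay between -0.04 and 0.42 in the 6 comparisons, with 0 to 2 at an unadjusted p under 0.05, against 2.98 to 7.5% of all genes. EFEMP1, a fibulin of the same family, averaged 211 ± 119 CPM in PLATE, 268 ± 54.3 CPM in acellular, 252 ± 62.8 CPM in sham and 160 ± 110.9 CPM in control, and its acellular libraries (209 to 316 CPM) lay inside the PLATE range of 64.7 to 324 CPM.

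Among the enzymes that cut elastin MMP12 was very high in PLATE 1. MMP12, the macrophage elastase, had 2229, 4.02, 0.837 and 59.2 CPM in PLATE 1, 5, 9 and 13, 0.0912, 3.49 and 26.6 CPM in acellular 6, 8 and 10, 0.4657, 65.2 and 0.494 CPM in sham 11, 12 and 14, and 0 to 55.3 CPM in controls. Outside PLATE 1 the groups overlapped, and low and high libraries occurred in each. MMP2, a stromal gelatinase that also cuts elastin, averaged 1160 ± 282 CPM in PLATE, 798 ± 83.8 CPM in acellular, 1031 ± 340 CPM in sham and 858 ± 120 CPM in control. Of the 7 elastolytic proteases tested 6 were higher in PLATE than in acellular (2 at an unadjusted p under 0.05, against 4.71% of all genes). All 7 were higher in PLATE than in sham (3 at that level, against 7.5% of all genes), at a median log2 fold change of 1.68. Without PLATE 1 the protease counts were 5 higher than in acellular (0 at that level, against 1.63% of all genes) and 5 higher than in sham (1 at that level, against 2.01% of all genes), with a median of 0.23 against sham. All 6 leukocyte markers were also higher in PLATE than in sham at a median of 2.09 (4 at that level, against 7.5% of all genes), and of 0.72 without PLATE 1 (0 at that level, against 2.01%). Their part in the protease levels was not tested. Of the 5 inhibitors tested 3 were higher in PLATE than in acellular (1 at that level against 4.71% of all genes, and 0 against 1.63% without PLATE 1). Of the same 5, 1 was higher and 4 were lower in acellular than in sham (0 at that level, against 4.87% of all genes). TIMP3, an inhibitor held in the matrix, averaged 459 ± 97.0 CPM in PLATE, 506 ± 94.9 CPM in acellular, 686 ± 53.1 CPM in sham and 487 ± 111.98 CPM in control. Its sham libraries (651 to 747 CPM) lay above every other library (at most 618.7 CPM). The log2 fold change was -0.58 ± 0.24 between PLATE and sham and 0.49 ± 0.22 between sham and control (edgeR adjusted p = 0.657 and 0.963). TIMP3 was the 1 inhibitor at that unadjusted level in each of these comparisons (against 7.5% and 2.98% of all genes). Between PLATE and sham 0 inhibitors lay there without PLATE 1. Among the 10 receptors tested, 1 lay at an unadjusted p under 0.05 between PLATE and acellular, 2 between PLATE and sham, 2 between acellular and sham, 1 between PLATE and control, 2 between acellular and control and 0 between sham and control, against 4.71%, 7.5%, 4.87%, 4.39%, 6% and 2.98% of all genes. The receptor count between PLATE and control was 0 without PLATE 1. ITGA8, an integrin subunit of smooth muscle and mesenchymal cells, averaged 62.2 ± 50.7 CPM in PLATE, 47.6 ± 26.0 CPM in acellular, 30.2 ± 6.65 CPM in sham and 73.8 ± 58.6 CPM in control, all groups overlapping. The 2 TGF-beta ligands tested had 0 at that level in every comparison, against 2.98 to 7.5% of all genes, with medians of -0.33 to 0.14.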

How the data were processed

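The deposited file is a table of whole-number counts, which the authors made from their reads for each gene name. Per the labels' protocols, libraries were stranded and selected for poly(A) RNA, and FastQC, HISAT2 2.2.1 and featureCounts are listed per the submitters' processing notes. The genome build, annotation and strand setting are not given in the sources used here. Table columns were assigned by the sample index that ends each description. A line pooling genes without a symbol (22.9 to 28.5% of the counts) was left out. EdgeR 4.0.16 (R 4.3.3) gave the main test, a quasi-likelihood F test after TMM scaling and filterByExpr, with all 16 libraries in 1 model, 1 mean per group and 12 residual degrees of freedom. Standard errors are the log2 fold change over the square root of F. A prior count of 2 was used for log2 CPM. The script was tested on simulated counts. Permutation tests of correlations were two-sided, and their p-values were adjusted over all other genes. Alternatives were DESeq2 1.42.0, its size factors in edgeR, limma voom 3.58.1 with quality weights, no filter, only the groups compared, and libraries left out. The genes, lists and alternatives were chosen with earlier results of these data known. The rule for named genes took all members, their fold changes at an unadjusted p under 0.05 or without overlap, and 9 other genes by name, of which MFAP2 and LTBP4 were not analysed here. Further fold changes are given to describe a member in full. Likeness was planned for ELN and was set against each member instead, so those neighbours, like the use of LOXL2 and the ratio of MFAP4 to FBLN5, were chosen after seeing the data, as were the lists without PLATE 1 and the correlations within 11 libraries. Libraries of a group differed by more than sampling noise. All 8 members matched the RefSeq gene table of assembly mOryCun1.1, used for names and overlaps only.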

Additional observations from a re-analysis of the deposited data

Results flagged for a closer look

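FBN2 in PLATE 1 (32.4 CPM) lay far from the other 3 PLATE libraries, the nearest of which had 2.90 CPM. MMP12 in PLATE 1 (2229 CPM) did as well, with the nearest at 59.2 CPM. MMP2 in PLATE 5 (738.6 CPM) lay below the other PLATE libraries, the nearest at 1262 CPM. ITGA8 in control 29 (187 CPM) lay above the other 5 controls, the nearest at 74.6 CPM. In all, 30 sets of values were checked in PLATE and control, 15 genes in each. The check used CPM and not log2 CPM. Chance alone flags about 1 in 20 where values are normally distributed, which skewed CPM values need not be.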

How the results depend on the processing

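No paired analysis was possible because the groups share only the label 9. The planned likeness to ELN was not run. With DESeq2, counts of called genes were 1 (PLATE against acellular), 14 (PLATE against sham), 1 (acellular against sham), 17 (acellular against control) and 1 (joint test) in place of 0, and 1 member, MFAP4, was called between acellular and control. Limma voom called 72 genes between acellular and sham, 1 of them MFAP4, and put the median of the 8 genes between acellular and control at -0.0183 in place of -0.31. In these cases the cause was not tested. DESeq2 gave no adjusted p to FBN2 in any comparison, nor to EMILIN1, FBLN2 and FBLN5 between acellular and control. With 1 library left out in turn, edgeR called 0 genes and 0 members in all 7 comparisons (lowest and highest 0). The median of the 8 genes then ran over 0.30 to 0.51 (PLATE against acellular), -0.25 to 0.04 (PLATE against sham), -0.89 to -0.62 (acellular against sham), 0.01 to 0.36 (PLATE against control), -0.38 to -0.15 (acellular against control) and 0.35 to 0.49 (sham against control). None of the 10 log2 fold changes that the rule named for members changed sign under the alternatives run. FBLN5 between acellular and sham, not among these 10, was -0.11 with edgeR and 0.12 with limma voom. Without PLATE 1 and control 2, MFAP4 stood at 1.53 (PLATE against acellular), -1.40 (acellular against sham) and -1.36 (acellular against control). Over all alternatives MFAP4 had an adjusted p of 0.329 to 1, 0.0495 to 1 and 0.0192 to 1 in these comparisons. Groups of 3 to 6 and a common biological coefficient of variation of 0.44 limit what could be called, and FBN2 had few counts outside PLATE 1.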

Other observations

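Some genes of the same lists had higher means in PLATE and sham than in control. They were picked after their values were seen, and none passed the adjusted threshold in edgeR. FBLN7, a fibulin-like adhesion protein, averaged 30.1 ± 19.0 CPM in PLATE, 16.3 ± 12.5 CPM in acellular, 26.7 ± 16.3 CPM in sham and 6.00 ± 6.52 CPM in control, a log2 fold change of 2.32 ± 0.76 between PLATE and control and 2.15 ± 0.80 between sham and control (edgeR adjusted p = 0.998 and 0.963). SVEP1, a large adhesion protein of mesenchyme, averaged 233 ± 114.6 CPM in PLATE, 184 ± 37.25 CPM in acellular, 259 ± 65.7 CPM in sham and 120 ± 68.2 CPM in control. LTBP2, which binds fibrillin, averaged 6.84 ± 2.62 CPM in PLATE, 2.27 ± 0.778 CPM in acellular, 6.28 ± 3.11 CPM in sham and 2.04 ± 2.30 CPM in control.

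COL2A1, the collagen of cartilage, ranged from 58.9 to 678 CPM over the 16 libraries, while ACAN, the main cartilage proteoglycan, was at most 6.86 CPM and COL9A1 was at 0 in 15 libraries.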
